A study of Homo sapiens with 15 samples.

Results

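The Eph receptors and their ephrin ligands are described here through 9 genes, the receptors EPHA2, EPHB2, EPHB3 and EPHB4 and the ephrins EFNA1, EFNA4, EFNA5, EFNB1 and EFNB2. They were taken by gene symbol from a table of 59608 genes, by a choice made with earlier results of these data known. EPHA2, which the study had singled out from these libraries together with a second set, of spheroids treated for 24 h, was set against the other 8. All 9 had a mean of at least 10 normalized counts (read counts divided by a size factor of the library) over the 15 libraries, the level above which genes were tested. The whole family counts 22 genes in the table, of which 16 passed that filter. RNA came from MDA-MB-231, a human triple-negative breast cancer cell line, grown as a monolayer. The cells had been exposed for 6 h to 0.1% DMSO, the solvent, or to 0.5, 5, 50 or 500 nM ZJ-101, a synthetic compound with a simpler structure than superstolide A, the marine product it is modelled on. Each of the 5 groups had 3 libraries, from separate dishes of this 1 line, so all values describe mRNA in a single genetic background and no protein. The comparisons with DMSO ask which genes respond to the compound and at which dose, and each of the 4 doses was compared with the same 3 DMSO libraries.

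Eph receptors form the largest family of receptor tyrosine kinases. They bind ephrins that are themselves fixed in the membrane of a neighbouring cell, so signalling needs contact between cells, and it runs forward into the receptor's cell and in reverse into that of the ephrin. A-type ephrins hang on a lipid anchor and bind mainly EphA receptors, whereas B-type ephrins span the membrane and bind mainly EphB receptors, and the complexes steer adhesion, repulsion and movement, with EPHA2 among the most studied receptors in breast cancer cells.

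The libraries held 12415519 to 15284762 reads assigned to genes, with 0.889 to 2.06% of them from mitochondrial genes. Replicates differed beyond counting noise in every group, and their chi-square statistic, divided by its degrees of freedom, lay between 2.06 and 16.8 over the pairs. The widest pairs were those of 0.5 nM replicate 2, with 16.8 against replicate 3 and 11.3 against replicate 1. The line's mesenchymal markers VIM, CD44, CAV1 and AXL lay between 7328 and 18414 normalized counts in every library. Of 5 genes listed as low or absent in this line, ESR1, the estrogen receptor gene, reached at most 4.30 normalized counts. PGR, the progesterone receptor gene, reached at most 17.3, and ERBB2 lay between 1136 and 1328. The epithelial genes CDH1 and EPCAM were present, at 107 to 206 and 266 to 320. Of the genes of other cell types, PTPRC (leukocytes) stayed at or below 3.53 and ALB (hepatocytes) at or below 1.77, while PECAM1, known from endothelium, lay between 200.8 and 321. The summed level of these 3 genes ranged from 239.8 to 293 in DMSO and from 200.8 to 232 at 500 nM, and its part in any result was not tested.

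EPHA2 was by far the most abundant member when levels were compared per kilobase of exon, the scale on which genes of different length can be set side by side. In DMSO it stood at 2384 ± 55.9 normalized counts per kb (SD, n = 3), which was 10.7 times the level of the next gene, EPHB2, at 224 ± 0.90. The remaining order was EPHB4 at 197 ± 6.74, EFNB1 at 143 ± 7.68, EFNB2 at 125 ± 1.95, EFNA5 at 104 ± 7.64, EFNA4 at 71.1 ± 8.01 and EFNA1 at 54.5 ± 7.45 normalized counts per kb. Of EFNB2's exon bases 36.4% overlap another gene, and reads there may not have been counted for EFNB2, so its place is uncertain. EPHB3 closed the list at 3.23 ± 0.89 normalized counts per kb, which rested on 12 to 19 reads per DMSO library. The ranges of neighbours in this order did not touch, with the exception of EFNA4 and EFNA1, whose DMSO libraries overlapped. These levels use all exon bases of a gene. The longest transcript is shorter for EPHB4 (5058 of 6437 bases) and EFNA1 (1552 of 2165) but nearly equal for EFNA4 (1254 of 1257). The order of close neighbours therefore depends on the length used. Among the other family genes EPHA4, a receptor that binds ephrins of both types, was the most abundant, at 26.8 ± 0.89 normalized counts per kb.

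**Figure D1:**
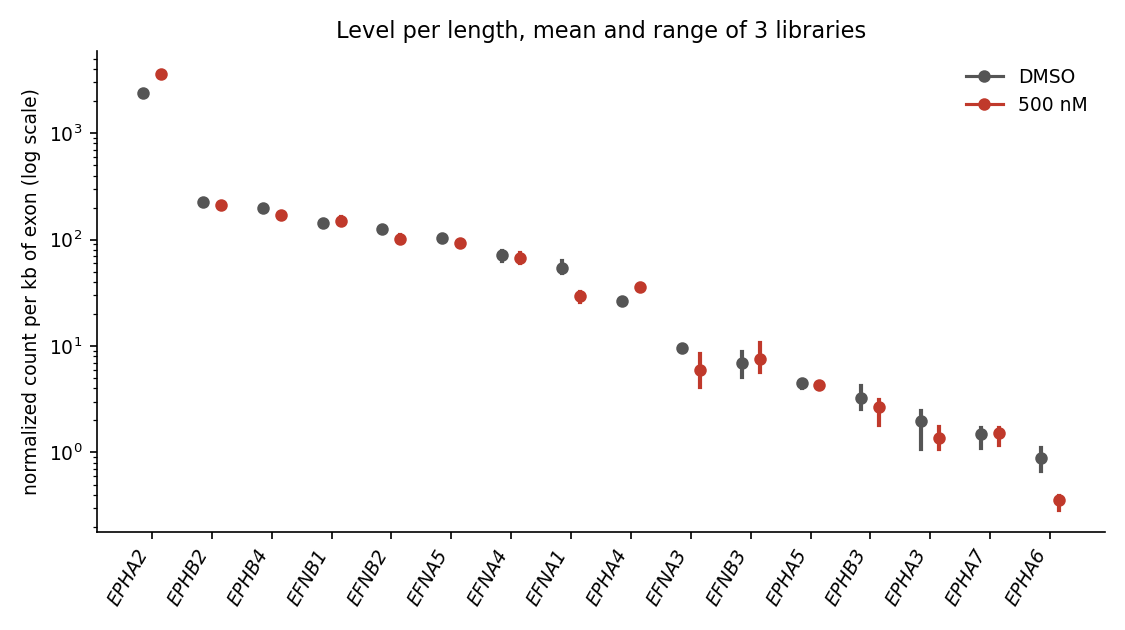
Level of the 16 tested Eph and ephrin genes in normalized counts per kb of exon (log axis), as the mean (point) and range (bar) of 3 libraries in DMSO (grey) and at 500 nM ZJ-101 (red). EPHA2 stands alone at 2384 per kb in DMSO, and the other members lie between 3.23 and 224.

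EPHA2 rose from 50 nM on, and of the other members EFNA1, EFNB2 and EPHB4 fell at 500 nM while the other 5 did not pass. Genes were tested with limma on log2(normalized count + 1) over all 15 libraries, with p-values adjusted by the Benjamini-Hochberg procedure over the 13561 genes tested and a threshold of 0.05. At 0.5 nM, 0 of the 9 members passed, where 1.17% of all tested genes did. There, 3 members, all lower than in DMSO, had an unadjusted p under 0.05 in limma, as did 1997 of the 13561 genes tested. On the recovered reads edgeR and DESeq2 also called 0 members. At 5 nM, 2 of 9 passed against 2.18% of all genes, and both fell, the direction of 1.71% of all genes, whereas 0.465% rose. At 50 nM, 2 of 9 passed against 6.00% of all genes, 1 of them upward, as did 2.29% of all genes, and 1 downward, as did 3.71%. At 500 nM, 4 of 9 passed against 17.8% of all genes, with 1 risen where 7.69% of all genes rose and 3 fallen where 10.1% fell. The median log2 fold change of the 9 members at 500 nM was -0.14, beside 0.00 over all genes tested.

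**Figure D2:**
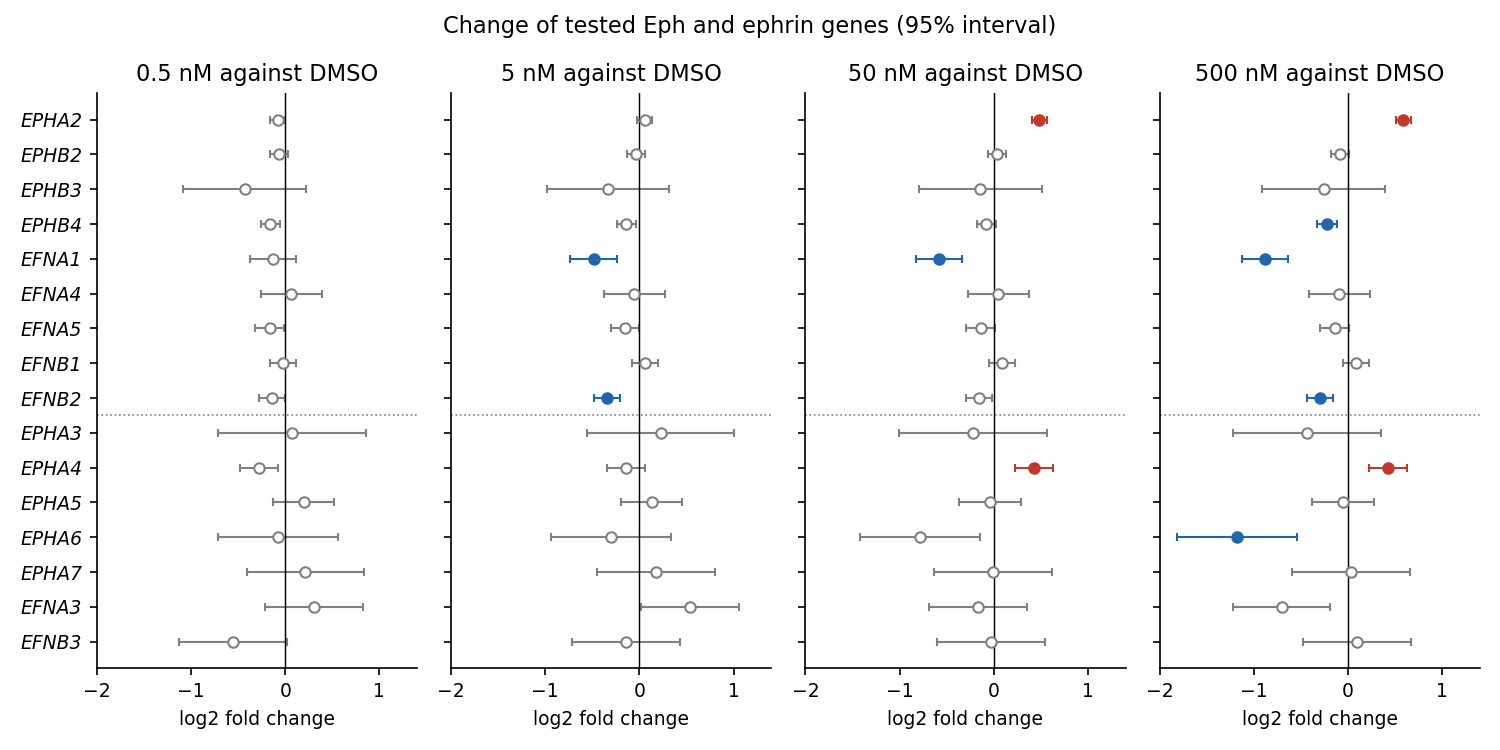
Log2 fold change against DMSO, with its 95% interval, of the 9 members (above the dotted line) and 7 other tested family genes at each dose. Filled points passed the adjusted threshold (red higher, blue lower), and EPHA2 and EPHA4 are the genes filled red, both at 50 and 500 nM.

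A second view of the dose series came from the slope on dose rank, which places DMSO and the 4 doses at equal steps from 0 to 4 and gives the log2 change per step. By this slope 3 of 9 members passed, against 17.6% of all genes. EPHA2 rose by 0.17 per step (SE 0.02, adjusted p = 3.8e-06, limma), and 8.23% of all genes had a rising slope. EFNA1 had a slope of -0.22 (SE 0.03, adjusted p = 3.6e-06) and EFNB2 one of -0.06 (SE 0.02, adjusted p = 0.037), in the direction of 9.33% of all genes. The EFNB2 slope lost its call when a single DMSO library was left out (adjusted p = 0.086, 0.091 and 0.099), without 500 nM replicate 2 (0.072) or 3 (0.12), with no filter on low genes (0.067) and over the 12 treated libraries alone (0.53).

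Neighbouring doses were also compared with each other. From 5 to 50 nM, EPHA2 was the 1 of 9 members that passed, with 5.01% of all genes. From 0.5 to 5 nM 0 members passed beside 0.118% of all genes, and 3 had an unadjusted p under 0.05 in limma, beside 1079 of 13561 genes. From 50 to 500 nM again 0 members passed beside 2.28% of all genes, and 5 had an unadjusted p under 0.05, beside 1773 of 13561 genes. In both of these steps edgeR on the recovered reads called 0 members too.

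EPHA2 (ENSG00000142627.13, GRCh38 chromosome 1, 16124337 to 16156069, minus strand) encodes the receptor that binds ephrin-A1 and the other A-type ephrins. Its normalized counts were 9979.7, 10032.5 and 9608 in the 3 DMSO libraries, 9433, 9139.7 and 9482 at 0.5 nM and 10368, 10194 and 10206 at 5 nM. At 50 nM they were 14029.7, 13579.6 and 13874, and at 500 nM 15346, 14751 and 14418. The 0.5 nM libraries all lay below those of DMSO, the 5 nM libraries all just above, and every library at 50 or 500 nM lay above all of these. At 50 nM EPHA2 rose by 40.1%, a log2 fold change of 0.49 (SE 0.04, adjusted p = 7.6e-08, limma). This was 82.7% of the log2 change reached at 500 nM, where the mean was 50.3% above DMSO. From 5 to 50 nM alone the log2 fold change was 0.43 (SE 0.04, adjusted p = 6.1e-07), and from 50 to 500 nM it was 0.10 (95% interval 0.02 to 0.18, adjusted p = 0.24). At 0.5 nM the log2 fold change against DMSO was -0.08 (adjusted p = 0.35) and at 5 nM 0.06 (adjusted p = 0.6), neither past the threshold.

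**Figure D3:**
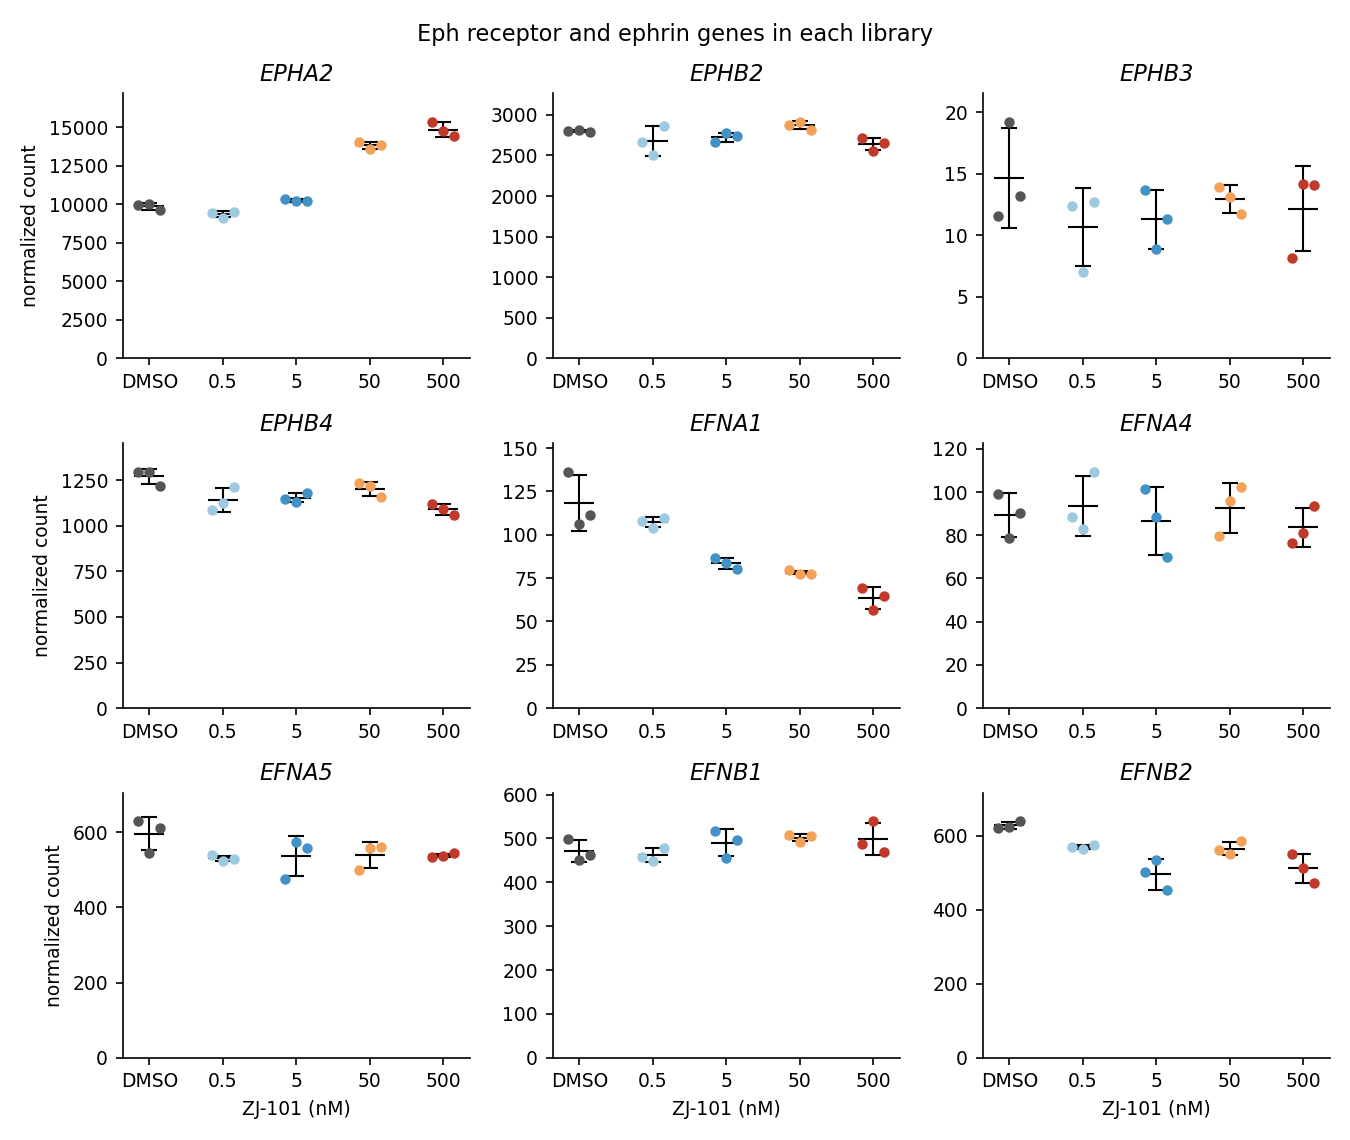
Normalized counts of the 9 members in each library (points) by dose of ZJ-101, with the mean and SD of 3 libraries (black); each vertical axis starts at 0. EPHA2 steps up between 5 and 50 nM, from 10256 to 13828 on average, and EFNA1 descends from 118 in DMSO to 63.5 at 500 nM.

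The bases just upstream of EPHA2 and EFNA1 are shown because these genes had the lowest p-values among the members at 500 nM and moved in opposite directions. Both windows are 250 bases long and end at the base before the RefSeq start of transcription (GRCh38.p14), at chr1:16156070-16156319 on the minus strand for EPHA2 and chr1:155127626-155127875 on the plus strand for EFNA1, and are printed 5′ to 3′. Capitals mark the cAMP response element palindrome TGACGTCA in EPHA2 and the GC box GGGCGG, on either strand, in EFNA1.
EPHA2: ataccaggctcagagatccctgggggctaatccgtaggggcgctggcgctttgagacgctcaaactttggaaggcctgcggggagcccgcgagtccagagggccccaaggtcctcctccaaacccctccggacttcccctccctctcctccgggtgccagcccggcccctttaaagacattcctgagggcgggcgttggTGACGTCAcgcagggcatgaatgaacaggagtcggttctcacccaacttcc
EFNA1: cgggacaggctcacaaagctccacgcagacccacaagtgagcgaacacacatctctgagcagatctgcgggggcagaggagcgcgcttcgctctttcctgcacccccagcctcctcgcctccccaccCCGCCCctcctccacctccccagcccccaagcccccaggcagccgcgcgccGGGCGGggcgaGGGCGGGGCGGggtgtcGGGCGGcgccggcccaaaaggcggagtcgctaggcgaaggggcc
The palindrome of EPHA2 begins 51 bases before the start and holds, by its letters, the shorter core TGACG on both strands, which 21.2% of all windows hold. It was present in 1.65% of 35116 RefSeq windows of this length, and among the 21 windows of the 15 family genes matched in RefSeq, EPHA2 had the 1 match. EFNA1 held 5 matches to the GC box and EPHA2 held 1, a motif found in 42.6% of all windows. Neither of these 2 windows had a match to TGANTCA (AP-1), GAANNTTC (a heat-shock element), CACGTG (E-box), CCAAT or TATAAA, which are in 6.57, 5.78, 6.34, 32.0 and 10.7% of all windows. These motifs were searched on both strands and were picked after the sequences had been read, and a match describes letters, with binding not measured.

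Set against the other 8 members within each library, EPHA2 moved apart from every one of them at 500 nM. The difference log2(EPHA2 + 1) minus log2(gene + 1) was taken in each library and tested with limma against DMSO for all 13560 other genes. By this measure the change of EPHA2 exceeded that of 86.2% of all genes at 500 nM and of 83.2% at 50 nM, so a difference from a member was the usual case and not particular to the family. All of these differences also share EPHA2's own values. The gap was widest for its ligand EFNA1, at 1.47 on the log2 scale (95% interval 1.22 to 1.72, adjusted p = 1.7e-09, limma), and it was 0.88 for EFNB2 (0.75 to 1.02). Next came 0.85 for EPHB3 (0.19 to 1.50), 0.81 for EPHB4 (0.70 to 0.91) and 0.73 for EFNA5 (0.56 to 0.90). The gaps to EFNA4, EPHB2 and EFNB1 were 0.68, 0.67 and 0.51. The EPHB3 difference (adjusted p = 0.017) was lost without DMSO replicate 2 (0.087), without 500 nM replicate 1 (0.11) and with no filter on low genes (0.063). At 50 nM 7 of 8 passed, with 1.07 for EFNA1 (0.81 to 1.32) at the top, and the exception was EPHB3 at 0.63 (-0.03 to 1.28, adjusted p = 0.071). The EPHB3 difference at 50 nM passed without DMSO replicate 1 (adjusted p = 0.049) and with a pseudocount of 5 (0.025). The EFNA4 difference at 50 nM, 0.44, was lost without DMSO replicate 1 (adjusted p = 0.064) or 50 nM replicate 1 (0.089).

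**Figure D4:**
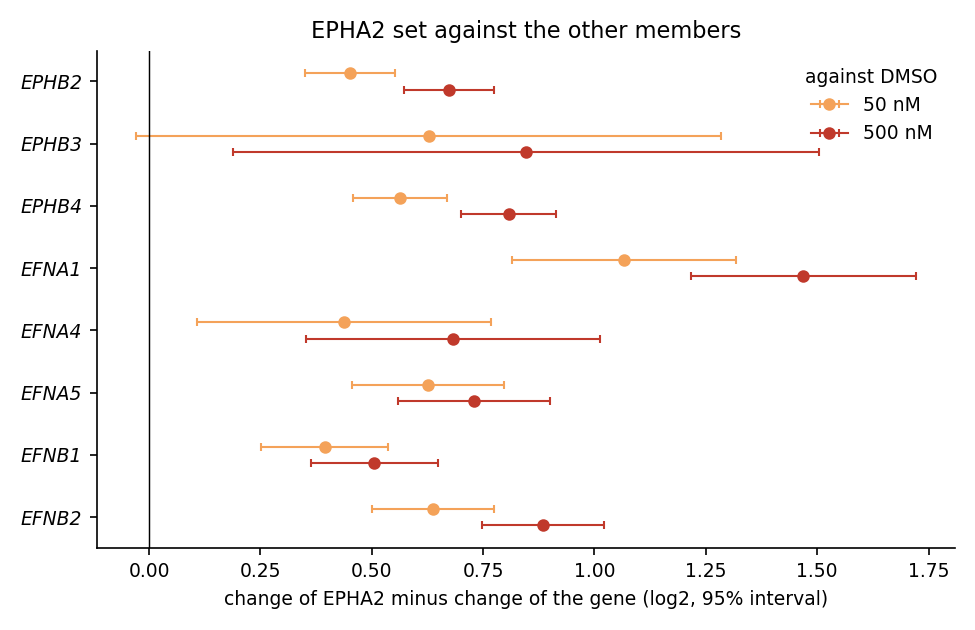
Log2 change of EPHA2 minus the log2 change of each other member, with its 95% interval, at 50 nM (orange) and 500 nM (red) against DMSO. All 8 intervals at 500 nM lie above 0, from 0.51 for EFNB1 to 1.47 for EFNA1, and at 50 nM that of EPHB3 crosses 0.

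Per length, the lead of EPHA2 over its ligand EFNA1 went from 44.2 ± 5.61 times in DMSO to 92.4 ± 0.917 at 50 nM and 123 ± 11.5 at 500 nM (SD, n = 3). Its lead over EPHB2 went from 10.7 ± 0.214 to 17.0 ± 0.494 times, and over EPHB4 from 12.1 ± 0.142 to 21.1 ± 0.191 times. The size of each lead depends on the exon lengths used, which are the same in every group.

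The 3 EphB members, which bind B-type ephrins, were lower or close to their DMSO level at 500 nM. EPHB4 (chromosome 7, 100802565 to 100827523, minus strand), the preferred receptor of ephrin-B2 in vessels, had 1297, 1294 and 1220.5 normalized counts in DMSO and 1118, 1094 and 1059.8 at 500 nM, with all treated libraries below all controls. It fell by 14.2% at 500 nM, a log2 fold change of -0.22 (SE 0.05, adjusted p = 0.0038, limma). Its libraries also lay below those of DMSO at 0.5 and 5 nM, with log2 fold changes of -0.16 and -0.14 that missed the threshold (adjusted p = 0.14 and 0.19). At 50 nM the value was -0.08 (0.47), so that its levels did not follow the order of the doses.

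EPHB2 (chromosome 1, 22710839 to 22921500, plus strand), a receptor best known from axon guidance and the intestinal crypt, had 2799, 2812 and 2790.0 normalized counts in DMSO. It had 2879, 2913 and 2815 at 50 nM and 2709, 2559 and 2648 at 500 nM, so the libraries stood above the controls at the first dose and below them at the second. Its 95% interval at 500 nM was -0.18 to 0.01 around -0.09 on the log2 scale (adjusted p = 0.22, limma), and at 50 nM it was -0.06 to 0.13 around 0.03. The EPHB2 counts in DMSO had a CV of 0.401%, so groups could separate on small differences. EPHB3 (chromosome 3, 184561785 to 184582408, plus strand) was near the filter, at 11.5 to 19.2 normalized counts in DMSO and 8.15 to 14.2 at 500 nM, and its interval of -0.91 to 0.39 leaves both a fall and a rise of the size of EPHB4's possible at this depth.

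Of the A-type ephrins, EFNA1 fell and the other 2 members did not pass. EFNA1 (ENSG00000169242.12, chromosome 1, 155127876 to 155134899, plus strand), the ligand first paired with EPHA2, had 136, 106 and 112 normalized counts in DMSO and 108, 104 and 109 at 0.5 nM. Its counts were 86.6, 83.8 and 80.3 at 5 nM, 79.5, 77.5 and 77.6 at 50 nM and 69.3, 56.6 and 64.5 at 500 nM. The 0.5 nM libraries overlapped those of DMSO, with 1 of them just below the lowest control, and from 5 nM on each dose lay wholly below the dose before it. EFNA1 fell by 46.3% at 500 nM, a log2 fold change of -0.88 (SE 0.12, adjusted p = 2.4e-05, limma). At 50 nM the log2 fold change was -0.58 (SE 0.12, adjusted p = 0.0041), 65.8% of that at 500 nM. The value at 5 nM, -0.49 (adjusted p = 0.036), rested on 78 to 95 reads per treated library. It lost its call when a single DMSO or 5 nM library was left out, whichever it was (adjusted p between 0.056 and 0.21), with no filter on low genes (0.062) and in DESeq2 (0.073), and without DMSO replicate 1, the highest EFNA1 library, it was -0.38.

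EFNA5 (chromosome 5, 107376894 to 107670937, minus strand), which besides EphA receptors can bind EPHB2, had 628, 545 and 611 normalized counts in DMSO and 533, 537 and 543 at 500 nM. The treated libraries lay just below the lowest control, and the log2 fold change of -0.14 (95% interval -0.30 to 0.01, adjusted p = 0.21, limma) did not pass. The 4 doses gave EFNA5 values between -0.16 and -0.14, with no trend across dose (slope -0.03, adjusted p = 0.34). EFNA4 (chromosome 1, 155063737 to 155069553, plus strand) ranged from 78.9 to 99.0 normalized counts in DMSO and from 76.4 to 93.6 at 500 nM. The groups overlapped at every dose and the log2 fold change at 500 nM was -0.09 (95% interval -0.42 to 0.23). In the GENCODE 44 annotation 15.04% of EFNA4's exon bases also belong to the EFNA4-EFNA3 readthrough gene, so reads there may not have been counted for EFNA4.

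Of the B-type ephrins, EFNB2 fell at 5 and 500 nM and EFNB1 did not pass at any dose. EFNB2 (chromosome 13, 106489745 to 106535662, minus strand), an arterial marker and the ligand of EPHB4, had 621, 624 and 639 normalized counts in DMSO and 502, 534 and 452 at 5 nM. It had 561, 550.1 and 585 at 50 nM and 550.4, 512 and 473 at 500 nM. All 12 treated libraries lay below the lowest DMSO library, but the doses were not in order, with 5 and 500 nM lowest. EFNB2 fell at 5 nM by a log2 fold change of -0.34 (SE 0.07, adjusted p = 0.0085, limma), and at 500 nM the value was -0.30 (SE 0.07, adjusted p = 0.0033). Between them, at 50 nM, it was -0.15 (adjusted p = 0.23), and from 5 to 50 nM it was 0.19 (adjusted p = 0.11). In the annotation 36.4% of EFNB2's exon bases overlap another gene, ENSG00000284966, and without strand in the counting, reads of the pair may not be told apart. EFNB1 (chromosome X, 68829021 to 68842160, plus strand), the second B-type ligand, had 499.7, 451 and 463 normalized counts in DMSO and 488, 539 and 469.9 at 500 nM. Its groups overlapped at every dose, and the log2 fold change at 500 nM was 0.08 (95% interval -0.06 to 0.22, adjusted p = 0.46).

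Separation of the libraries was more common than a call. At 500 nM 6 of 9 members had 3 libraries clear of the 3 DMSO libraries (EPHA2 above, and EPHB2, EPHB4, EFNA1, EFNA5 and EFNB2 below), beside 38.5% of all genes. The counts were 4 of 9 at 0.5 nM, 5 of 9 at 5 nM and 4 of 9 at 50 nM, beside 18.1, 23.2 and 24.8% of all genes. At 0.5 nM the 4 members, EPHA2, EPHB4, EFNA5 and EFNB2, were all below DMSO.

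Outside the 9 members, the family held 7 further tested genes, of which 1 rose and 1 fell at 500 nM. The share called was 28.6%, beside 17.8% of all genes (7.69% up and 10.1% down). EPHA4 (chromosome 2, 221418027 to 221574202, minus strand) had 209, 196 and 201 normalized counts in DMSO, 189, 171 and 189 at 5 nM, 255, 277 and 285 at 50 nM and 254, 286 and 276 at 500 nM. Like EPHA2, it lay below DMSO at 0.5 nM and above it in every library at 50 and 500 nM. EPHA4 rose by 0.43 on the log2 scale at 50 nM (SE 0.10, adjusted p = 0.0085, limma) and 0.43 at 500 nM (SE 0.10, adjusted p = 0.0036), and from 5 to 50 nM it was 0.57 (adjusted p = 0.001). The change of EPHA2 minus that of EPHA4 was 0.16 at 500 nM (95% interval -0.04 to 0.37, adjusted p = 0.13), so the difference between these 2 receptors was not detectable and could be as large as 0.37.

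EPHA6, a receptor of the nervous system, had 20.2, 12.1 and 16.2 normalized counts in DMSO and 7.13, 7.08 and 5.30 at 500 nM, a log2 fold change of -1.18 (SE 0.30, adjusted p = 0.0099, limma). These are 6 to 7 reads per treated library, and the call was lost with no filter (adjusted p = 0.066) and without DMSO replicate 1 (0.058). EFNA3 gave -0.71 at 500 nM (adjusted p = 0.057) and passed without 500 nM replicate 1 (-0.97, 0.012), and it shares 43.9% of its exon bases with the EFNA4-EFNA3 readthrough gene. EPHA3, EPHA5, EPHA7 and EFNB3 had 500 nM values of -0.43, -0.05, 0.03 and 0.10, none past the threshold. The 6 genes under the filter were EPHA1, EPHA8, EPHA10, EPHB1, EPHB6 and EFNA2. EPHA8 had 0 reads in all 15 libraries, EPHB1, EPHA10 and EPHB6 had 3, 5 and 11 reads in all, and EFNA2 and EPHA1 had 42 and 57.

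In terms of makeup, EPHA2 took a growing share of the Eph receptor mRNA from 5 nM on. Summed per kb over all Eph receptor genes, it made up 83.8 ± 0.125% in DMSO (SD, n = 3). The share was 84.1 ± 0.638% at 0.5 nM, with libraries that overlapped those of DMSO. It was 85.1 ± 0.232% at 5 nM, 87.8 ± 0.331% at 50 nM and 89.3 ± 0.193% at 500 nM. All libraries at 5, 50 and 500 nM lay above all DMSO libraries, which gives p = 0.1 in a two-sided exact permutation test, the smallest that 3 against 3 can give. EFNA1 made up 22.6 ± 1.23% of the summed ephrin-A level in DMSO and 14.96 ± 1.35% at 500 nM. The summed EphA level over the summed ephrin-A level went from 10.1 ± 0.999 in DMSO to 15.9 ± 1.48 at 50 nM and 18.5 ± 1.07 at 500 nM. The summed EphB level was 424 ± 7.72 normalized counts per kb in DMSO and 383 ± 7.77 at 500 nM, and the summed ephrin-B level was 275 ± 5.15 and 261 ± 12.3, with overlapping libraries for ephrin-B. The ephrin-B sum holds EFNB2, whose level is uncertain because its exons overlap another gene. EPHA2 and EFNA1 enter these shares and ratios with the values given above, so they are no further measurement.

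The partners through which Eph receptors and ephrins act were taken from a list of 55 genes, of which 50 were tested. At 500 nM 5 of them rose and 6 fell, 22.0% in all beside 17.8% of all genes, and their median log2 fold change was -0.02. The 3 genes with the largest changes, MMP14, ADAM10 and NCSTN, were among the 7 genes of ectodomain cleavage and gamma-secretase, and all 3 fell. They were picked by size after the values were seen, and the median log2 fold change of the 7 was -0.09. MMP14, a membrane metalloproteinase that can cut EPHA2, had 10347, 10281 and 9778 normalized counts in DMSO and 3911, 3948 and 3909.9 at 500 nM, a log2 fold change of -1.37 (SE 0.05, adjusted p = 8.3e-13, limma). ADAM10, the sheddase that cuts ephrins held by a receptor, had 3041, 3089.6 and 3031 in DMSO and 1579.7, 1691 and 1523 at 500 nM, a log2 fold change of -0.94 (SE 0.06, adjusted p = 1.2e-09). In both genes every treated library lay below every control. NCSTN, the nicastrin subunit of gamma-secretase, fell by 38.2% at 500 nM (-0.69 on the log2 scale, SE 0.05, adjusted p = 3.4e-09). PSEN2, a catalytic subunit of the same complex, rose, with a log2 fold change of 0.37 (adjusted p = 0.0013). In the annotation 38.7% of PSEN2's exon bases overlap another gene.

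**Figure D5:**
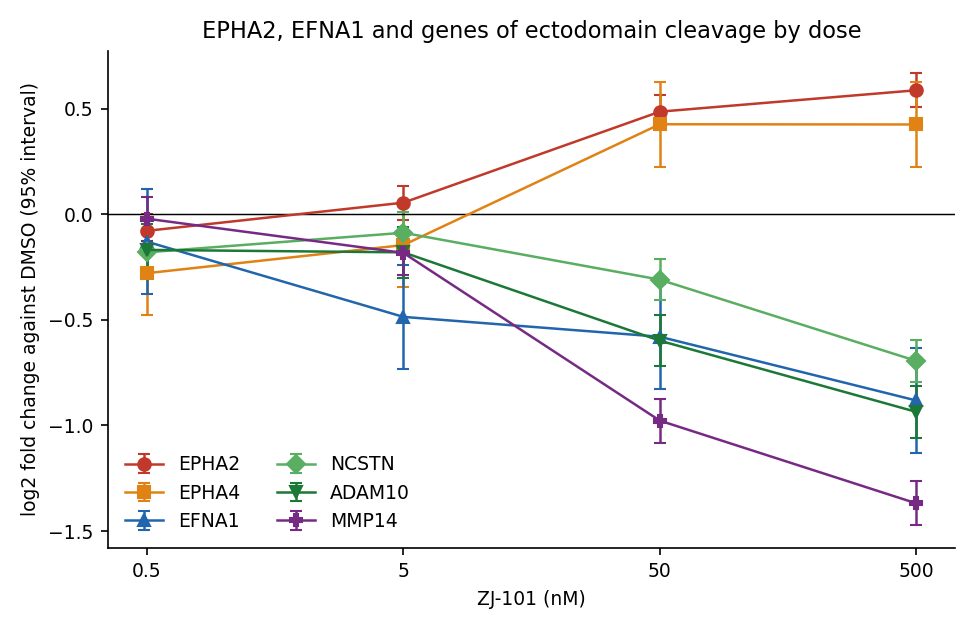
Log2 fold change against DMSO, with its 95% interval, of EPHA2, EPHA4, EFNA1, NCSTN, ADAM10 and MMP14 at each dose of ZJ-101. At 500 nM EPHA2 stands at 0.59 and EPHA4 at 0.43, while EFNA1, ADAM10 and MMP14 stand at -0.88, -0.94 and -1.37.

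In limma over all 15 libraries MMP14, ADAM10 and NCSTN first passed at 50 nM, as did EPHA2, but for MMP14 and ADAM10 that first dose depended on the libraries used. At 50 nM MMP14 stood at -0.98 (adjusted p = 3.5e-10, limma), ADAM10 at -0.60 (1.1e-06) and NCSTN at -0.31 (0.00022). For MMP14 and ADAM10 this was 71.4 and 64.0% of the log2 change at 500 nM. At 5 nM 0 of the 50 partners passed in limma over all 15 libraries, beside 2.18% of all genes. An unadjusted p under 0.05 was found for 10 of them, beside 1749 of 13561 genes. Without 0.5 nM replicate 2, limma called MMP14 (-0.18, adjusted p = 0.025), ADAM10 (-0.18, 0.023), PSEN2 (0.27, 0.034), ABL2 (0.23, 0.036) and SRGAP1 (0.27, 0.041) at 5 nM. Each also passed in the 6 libraries of 5 nM and DMSO alone (adjusted p between 0.0017 and 0.037). On the recovered reads MMP14 was called at 5 nM in DESeq2 (-0.18, adjusted p = 0.019) and PSEN2 in edgeR (0.28, adjusted p = 0.048). At 0.5 nM NCSTN was called in DESeq2 (-0.18, adjusted p = 0.028) and not in limma (-0.18, adjusted p = 0.08).

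Of the remaining partners, ABL2, a kinase of the actin cytoskeleton, rose by a log2 fold change of 0.52 (SE 0.09, adjusted p = 0.00067, limma) at 500 nM, and SRGAP1, a GTPase-activating protein, by 0.40 (SE 0.10, adjusted p = 0.0064). RAC1, a small GTPase of the actin cytoskeleton, had -0.26 (adjusted p = 0.0032) and the adaptor GRB10 -0.26 (adjusted p = 0.0041). The adaptor NCK2 (-0.23, adjusted p = 0.016) and the phosphatase PTPN1 (0.15, adjusted p = 0.017) passed narrowly. NCK2 was lost when DMSO replicate 2, DMSO replicate 3, 500 nM replicate 1 or 500 nM replicate 3 was left out (adjusted p between 0.058 and 0.075). PTPN1 was lost without DMSO replicate 3 (0.078) or 500 nM replicate 1 (0.086) or 3 (0.051) and with no filter (0.052). Of the 5 genes of reverse signalling through ephrin-B, 0 passed in limma at 500 nM, beside 17.8% of all genes. An unadjusted p under 0.05 was found for 0 of these 5, beside 3980 of 13561 genes.

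Of 39 other receptor tyrosine kinase genes 23 were tested, and 5 rose and 2 fell at 500 nM, 30.4% in all beside 17.8% of all genes (7.69% up and 10.1% down). MERTK, a receptor for apoptotic cells, rose by a log2 fold change of 0.89 (SE 0.07, adjusted p = 1.3e-08, limma). EGFR, the epidermal growth factor receptor, rose by 0.70 (SE 0.11, adjusted p = 0.00017) and FGFR1, a fibroblast growth factor receptor, by 0.32 (SE 0.05, adjusted p = 4.6e-05). FGFR3 fell, at -0.82 (adjusted p = 2.8e-05), and so did the Wnt receptor RYK, at -0.20 (adjusted p = 0.007). FGFR3 was also called lower at 0.5 and 5 nM. At 50 nM 0 of the 23 genes were called lower, beside 3.71% of all genes. EPHA2's rise at 500 nM, 0.59, thus lay between those of FGFR1 and EGFR.

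Of 43 other guidance genes, from the semaphorin, plexin, neuropilin, Slit, Robo and netrin pathways, 35 were tested, and 1 rose, 15 fell and the others did not pass at 500 nM. The 45.7% called stood beside 17.8% of all genes, the 42.9% that fell beside 10.1%, and the median log2 fold change was -0.25 beside 0.00. SEMA3A, a secreted repellent of axons, had 584, 545 and 607 normalized counts in DMSO and 214, 228 and 207 at 500 nM (-1.42 on the log2 scale, SE 0.09, adjusted p = 8.7e-10, limma). SEMA3C and SEMA3F of the same class had -0.88 (adjusted p = 8.6e-10) and -1.11 (adjusted p = 1.6e-07). All 6 tested genes of this secreted class 3 fell at 500 nM, a subgroup singled out after its values were seen. The gene that rose was PLXNB2, a plexin for class 4 semaphorins, at 0.32 (SE 0.05, adjusted p = 0.00017).

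Across the 15 libraries, the 5 tested genes most like EPHA2 included 3 chaperone genes. Pearson's r on log2(normalized count + 1), given as a description over libraries that share doses and scaling, was 0.988 for HSPA8, the constitutive cytosolic Hsp70, 0.985 for its co-chaperone DNAJA1 and 0.982 for the co-chaperone DNAJB1. The other 2 of the 5 genes with the highest r were TMEM201, of the inner nuclear membrane, with 0.986 and MUL1, a mitochondrial ubiquitin ligase, with 0.984. At the other end stood ID1, an inhibitor of helix-loop-helix factors, with -0.990, the urokinase receptor gene PLAUR with -0.989, PRSS23 and IKBIP with -0.987 each, and the protease gene CTSC with -0.986. Within the family EPHA4 was nearest, with 0.915, and EFNA1 and EPHA6 were the most opposed, with -0.833 and -0.840. All 10 genes at the extremes passed at 500 nM, beside 17.8% of all genes. They were picked for likeness to EPHA2, which passed there, over these same libraries, so this is no separate result.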

How the data were processed

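The deposited table holds 59608 genes in 15 libraries of poly-A RNA (paired 150 bp reads). The authors used HISAT2 (hg38) for alignment, htseq-count for counting and DESeq2 for size factors, and the deposited values are a signal, namely counts over the size factor of the library (normalized counts). Strandedness and the GENCODE release number were not given in the sources used here. 1 line without a gene was left out, and the study's 24 h spheroids were not analysed here.

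Whole reads were recovered from the smallest step of each library (100% of values whole within 0.001, size factors 0.916 to 1.13). The libraries held a median of 13320354 reads, and their number and 3 replicates per group limit the precision; p-values measure the spread between dishes of 1 line. The design assumed normalized values, and the test fitted them: log2(normalized count + 1), mean of at least 10 over all libraries (13561 genes), limma 3.58.1 in R 4.3.3, the 5 groups in 1 fit with 10 residual degrees of freedom. Intervals are 95%. Code was tested on simulated data. Alternatives used edgeR 4.0.16 and DESeq2 1.42.0 on recovered reads, other pseudocounts, filters, scalings and thresholds, and left out each library. Positions and exon lengths came from GENCODE 44, which held 93.8% of tested symbols, and promoters from RefSeq, which matched 15 of the 16 tested family genes.

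The members and lists were chosen with earlier results of these data known. EPHA2 is a gene the study itself singled out from these libraries together with its 24 h spheroids. Named genes were all family genes; partner genes past the threshold at 500 nM, at most 6 a direction by p; at most 3 a direction from the other kinases and from the guidance genes; and the 5 genes most and least like EPHA2. Replicate numbers did not pair the samples: same-numbered libraries had correlations of deviations between -0.0855 and 0.0961 over 30 pairs. The values of 1 gene of the pathway list are not reported here.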

Additional observations from a re-analysis of the deposited data

How the results depend on the processing

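The changes of the 9 members at 5, 50 and 500 nM and by the slope were recomputed under up to 27 alternatives each. Of 965 such values 941 kept their direction and side of the threshold, 19 lost a call, 5 gained one and 0 reversed. The calls lost were those of EFNA1 at 5 nM and of EFNB2 by the slope, as given beside them, and those of members under the minimum log2 change, where EPHB4 at 500 nM (-0.22) and the slopes of EPHA2, EFNA1 and EFNB2 were lost. EPHB4 gained a call by the slope in 5 alternatives. Of these, 1 was the threshold of 0.1 in place of 0.05 (adjusted p = 0.078, limma). The others left out 0.5 nM replicate 1 (0.033) or 2 (0.039), or 50 nM replicate 1 (0.047) or 2 (0.049). The number of members past the threshold at 0.5 nM went from 0 to between 0 and 1 when a library was left out, and the 1 was EPHB4 (-0.20, adjusted p = 0.043, limma) without 0.5 nM replicate 3. At 5 nM it was 2, but 1 with no filter, 1 with DESeq2, and between 1 and 2 without single libraries. By the slope it was 3, and 0 where an absolute log2 change of 0.25 per step was asked for as well. At 50 and 500 nM it was 2 and 4 in every fit that left out a library. The rise in EPHA2's share of the Eph receptor level, 5.55 percentage points, was 6.13 with the length of the longest transcript, since exon lengths set the weights, and between 5.46 and 5.65 without single libraries. Replicate numbers did not pair the samples, and with the replicate number as a block the members past the threshold stayed at 0, 2, 2 and 4 from the lowest to the highest dose, and 3 by the slope, while 7 of 15 libraries correlated best with their own number. Depth limits EPHB3 and EPHA6, whose 95% intervals at 500 nM ran from -0.91 to 0.39 and from -1.81 to -0.54 on the log2 scale.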
